A study of Oryzias latipes with 24 samples.

Results

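A set of 59 genes in medaka (Oryzias latipes) was nearly silent in the early embryo, abundant at stage 40 and at least 4-fold lower at stage 41. The genes were chosen from 26549 gene models by their level in TPM, a relative unit that corrects reads for transcript length and scales every library to the same total. The mean had to lie under 1 TPM at each of stages 6, 11 and 15, to reach 10 TPM at stage 40, and to be at least 4-fold lower at stage 41. On stage means 156 genes met these conditions. Of these, 14 listed transcription factors, 4 listed long noncoding RNAs and 2 genes set aside by name were left out. The same conditions then had to hold within replicate 1 and within replicate 2 taken alone, which 59 of the remaining 136 genes did. The levels at stages 6, 11, 15, 40 and 41 therefore chose the genes and are given below as a description. Where a test covers a step to stage 40 or 41, nothing about the members is read from its calls.

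The series held 22 libraries of pooled whole embryos at 11 stages, with 2 libraries per stage. Of the libraries, 20 came from the inbred Hd-rR strain. Replicate 2 of stages 40 and 41 carried the strain label d-rR / Qurt, and the study's sample table names a d-rR-Tg(olvas-GFP) X Qurt cross, a germ cell reporter line crossed to a second line. Strain and replicate number cannot be told apart at those stages. The labels call every sample an embryo, while the study also names a larval stage, read here as stage 41. TPM keep no read depth, so the depth behind each value is unknown, and p-values measure only the spread between these pools. The whole-embryo label was checked on marker sums. Lens, liver, red cell, neuron, photoreceptor and hatching gland markers with a matched symbol were present at stage 40. These were 1 of 5 listed genes for red cells, 2 of 5 for lens and 2 of 5 for hatching gland. For photoreceptors they were 2 of 7, for liver 3 of 6 and for neurons 5 of 5. The skeletal muscle and exocrine pancreas lists had 0 genes with a matched symbol. The separate role lists used below, with other symbols, held 12 measured muscle genes and 4 measured digestive enzyme genes.

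As background, the days before hatching are when a fish embryo finishes the organs that it needs as a free swimmer. Cone and rod photoreceptors build their outer segments and load them with opsins, the proteins that catch light. Chondrocytes surround themselves with collagens and small matrix proteins that later serve as a template for bone. Neurons assemble synapses, using adhesion proteins that align the contact and transporters that recycle the transmitter. The hatching gland, a transient organ, stores and then releases the enzymes that dissolve the egg envelope. In whole animals, a lower level can mean fewer cells of a type or less RNA per cell, and these cannot be told apart.

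The name given to such genes, late embryo genes lost in the larva, was only partly borne out by their levels. At stage 41, 58 of the 59 genes were still above every one of their early libraries, and 12 kept 10 TPM or more in both libraries. A single gene, IGDB02263, was listed at 0 in both. The median level over the 59 genes was 24.8 and 27.2 TPM in the stage 40 libraries and 4.41 and 3.97 TPM in those of stage 41. Together the genes held 7018 and 4873 TPM at stage 40, and 704 and 580 TPM at stage 41. They were reduced rather than absent.

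The genes did not switch on together. A mean of 10 TPM was first reached at stage 25 by 7 genes, at stage 29 by 10, at stage 32 by 12, at stages 36 and 38 by 14 each, and at stage 40 by 2. Nor was stage 40 the summit for most of them. The highest mean fell at stage 40 for 23 genes, at stage 38 for 17, at stage 36 for 18 and at stage 29 for 1. The stage 38 mean lay above that of stage 40 for 31 genes.

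**Figure D1:**
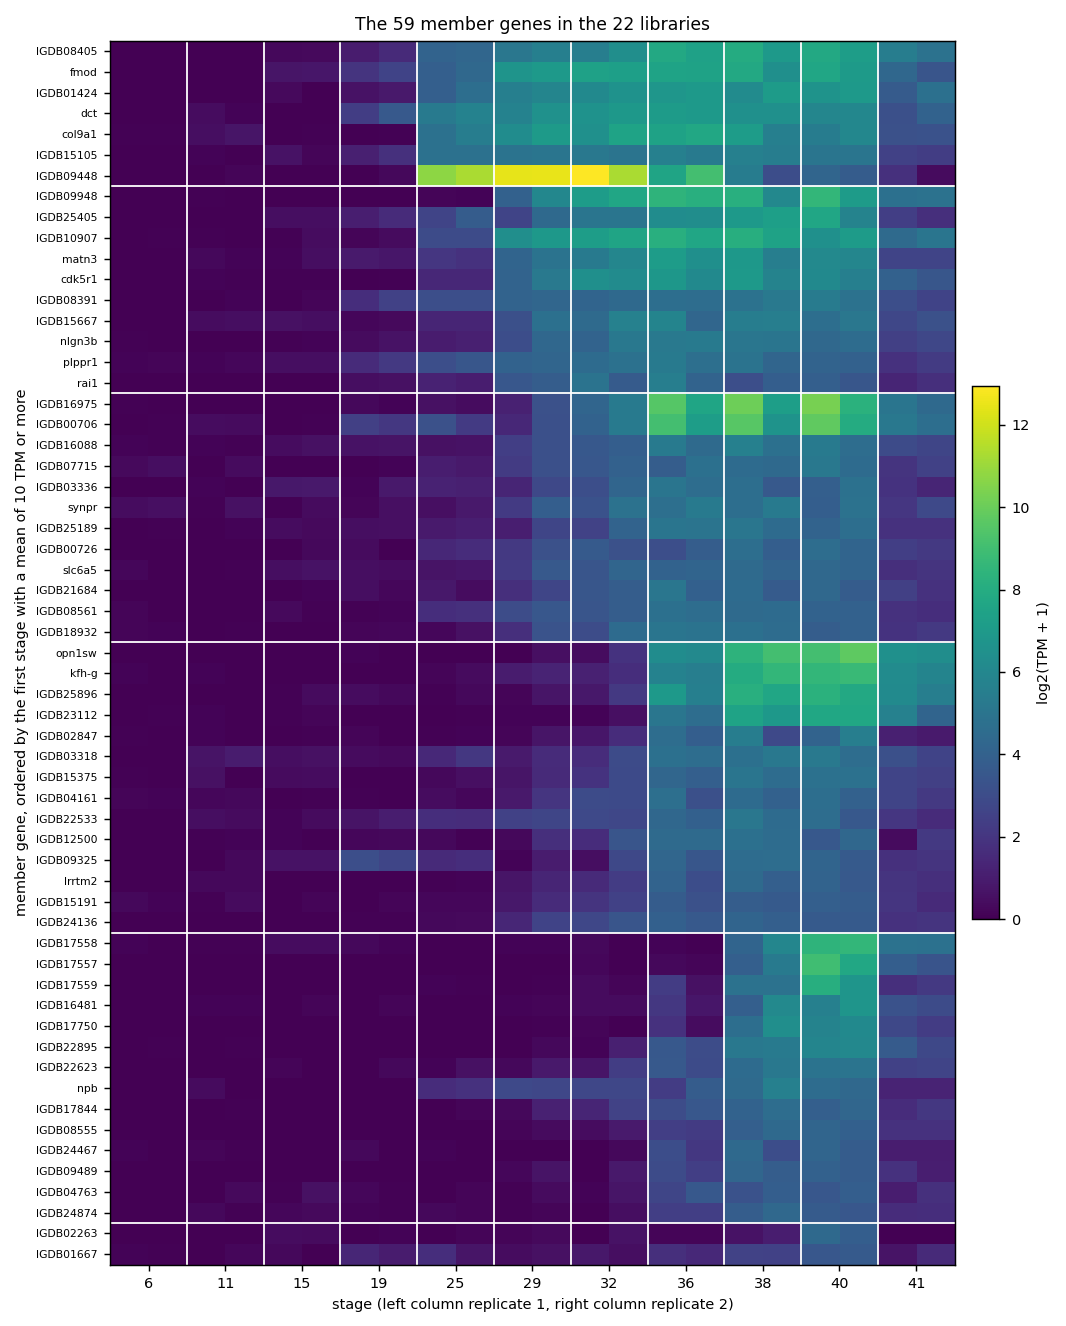
Levels of the 59 genes (rows) in the 22 libraries (columns), as log2(TPM + 1) in colour. Rows are ordered by the first stage with a mean of 10 TPM or more, from 7 genes at stage 25 to 2 at stage 40, and white lines separate the stages and these groups. The last pair of columns, stage 41, is darker than the pair before it in every row.

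The steps from stage 19 to stage 38 took no part in the choice, although a rise somewhere between stages 15 and 40 follows from it. Changes were tested with limma on log2(TPM + 1) over 21179 genes, and a gene was called when its level changed at least 2-fold (1 log2 unit) and its Benjamini-Hochberg adjusted p was under 0.05. From stage 19 to 25, 16 of the 59 genes rose (27.1%), against 7.18% of all genes tested. From stage 25 to 29, 19 rose (32.2%), against 7.22%. From stage 32 to 36, 24 rose (40.7%), against 4.12%, and from stage 36 to 38, 15 rose (25.4%), against 3.08%. One gene, IGDB09448, fell at each of these last 2 steps, where 0.269% and 1.33% of all genes fell.

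No gene of the set was called from stage 29 to 32. At an unadjusted p under 0.05 there were 29 genes, all higher at stage 32, and 57 of 59 had a higher mean there. That was 49.2% of the set at an unadjusted p under 0.05 and higher, against 30.5% of the 922 reference genes defined in the next paragraph and 7.16% of all genes tested, of which 62.8% had a higher mean at stage 32. Among all 21179 genes tested 0 rose there and 1 fell, or 0.00472% in either direction. Over the 5 steps, 35 genes rose once, 18 rose at 2 steps and 1, IGDB08561, at 3. The remaining 5 (IGDB01667, IGDB02263, IGDB03336, IGDB04161 and IGDB12500) passed the test at none. Counts by number of steps were not made for the reference genes or for all genes tested. A rise somewhere follows from the choice, so nothing is read from these member counts by number of steps. Of the 59 genes, 28 rose between stages 19 and 29 and 30 between stages 32 and 38, with 4 in both. The same counts were 555, 348 and 122 among the 922 reference genes, and 2565, 1327 and 207 among all 21179 genes tested.

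Part of the excess over all genes comes with the choice, because every chosen gene had to climb from under 1 TPM. A closer reference was the 922 genes that met the same early and stage 40 conditions in both replicates but stayed above the 4-fold limit at stage 41. Of these, 37.6% rose from stage 19 to 25, 40.6% from 25 to 29, 25.5% from 32 to 36 and 21.7% from 36 to 38. Against them the 59 genes had lower shares at the first 2 steps and higher shares at the last 2, and this difference was not tested. A rise in both the early and the late pair of steps was called in 6.78% of the members and 13.2% of the reference genes, beside 0.977% of all genes tested. The stage 38 level was 100.5% of stage 40 in the median member and 100.4% in the median reference gene. The highest mean before stage 41 was at stage 36 in 30.5% of the members and 19.4% of the reference genes. These differences were not tested either.

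**Figure D2:**
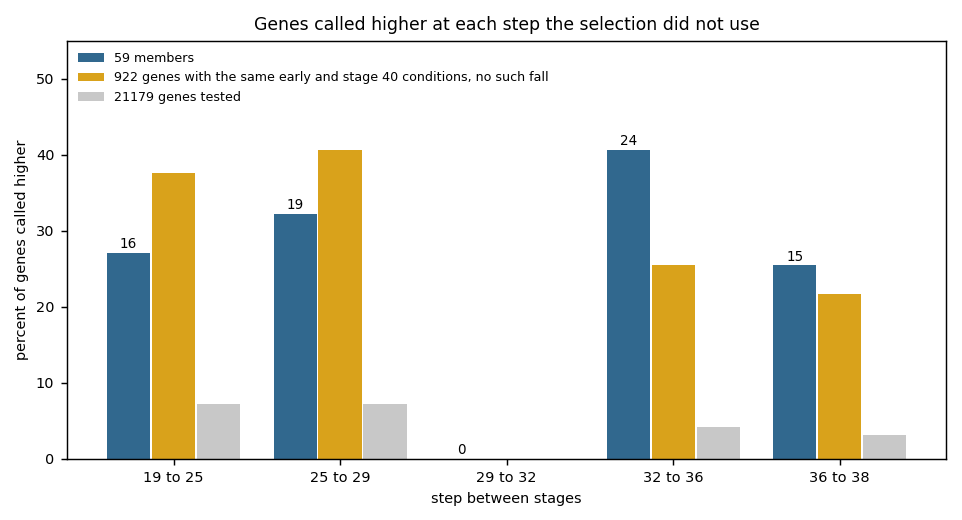
Percent of genes called higher at each of the 5 steps that the choice did not use, for the 59 genes, the 922 reference genes and all 21179 genes tested. Numbers above the bars count the members. The members' bar is the highest of the 3 from stage 32 to 36 and from 36 to 38.

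These counts moved with single libraries, and in each case below the calls over all genes moved in the same direction. The members' median log2 change from stage 32 to 36 was 1.16, against 0.03 over all genes. It was 0.95 against -0.04 without replicate 1 of stage 32, and 0.98 against 0.08 without replicate 1 of stage 36. Without replicate 1 of stage 19 or replicate 2 of stage 25, 8 members were called from stage 19 to 25. Beside them stood 976 and 1062 of the 21179 genes tested. Without replicate 2 of stage 29, 10 members were called from stage 25 to 29 and 8 from stage 29 to 32, beside 611 and 236 of all genes. From stage 32 to 36 the members' count was 10 without replicate 1 of stage 32 and 11 without replicate 1 of stage 36. The counts over all genes were 132 and 193.

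Cone opsins were among the most abundant genes of the set. They came on after stage 32 and rose until stage 38. The gene opn1sw encodes a short-wavelength cone opsin and lies at chr23:23824038-23825625, in positions of the study's gene models, whose build the files do not name. Its level was 0.356 and 2.66 TPM at stage 32, 77.5 and 67.9 at stage 36, 328 and 540 at stage 38, 543 and 832 at stage 40, and 90.0 and 79.2 at stage 41. The libraries of neighbouring stages did not overlap in any of these steps, although the change from stage 38 to 40 (0.67 log2 units) was not called. Stage 40 took part in the choice, so nothing is read from that step. The gene opn1sw rose by 5.05 ± 0.39 (SE) log2 units from stage 32 to 36 (adjusted p = 1.4e-06). It rose by 2.52 ± 0.39 from stage 36 to 38 (adjusted p = 0.000924), a call that was lost at a pseudocount of 0.1 (adjusted p = 0.0713).

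The gene kfh-g, the green-sensitive cone opsin of medaka at chr5:400513-404150, followed closely. It measured 51.5 and 46.1 TPM at stage 36, 247 and 384 at stage 38, 380 and 439 at stage 40, and 74.9 and 55.7 at stage 41. Its rises were 4.21 ± 0.29 (adjusted p = 6.29e-07) and 2.63 ± 0.29 log2 units (adjusted p = 5.14e-05) at the same 2 steps. From stage 38 to 40 its libraries overlapped and no change was called (0.41 log2 units). With stage 40 in the choice, nothing is read from that step. The stage 40 mean was 8.13 times that of stage 41 for opn1sw and 6.27 times for kfh-g, and both differences were larger in replicate 2.

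A list of 35 photoreceptor and retina gene symbols did not hold the symbols opn1sw and kfh-g, so these members stood outside it by name only. It gave 12 measured genes, none of them in the set. Of these, 9 rose from stage 32 to 36 and 9 from stage 36 to 38, with median log2 changes of 1.82 and 2.24, against 0.03 and -0.18 over all genes. From stage 40 to 41, 6 of the 12 were called lower and 0 higher, beside 9.71% and 5.22% of all genes, with a median change of -1.10 against -0.22. Rhodopsin (rho), the rod opsin, was at 5663 and 3684 TPM at stage 40 and at 1580 and 1132 TPM at stage 41, a ratio of 3.45 that missed the 4-fold limit. At each of these steps the calls in the list went in 1 direction only.

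The counts at the last step moved when the 2 libraries of the other strain were left out. In that fit, which leaves 1 Hd-rR library at stage 40 and 1 at stage 41 and assumes that they vary like the other stages, 3.48% of all genes were called lower and 3.80% higher, and 48 of the 59 members were called lower. There, 1 of the 12 photoreceptor genes was called lower and 0 higher, with a median log2 change of -1.42 against -0.29 over all genes. After median-of-ratios scaling, 4 of the 12 were called lower, beside 7.83% of all genes lower and 7.28% higher. Both settings were chosen for the lists after the data had been seen. The members were chosen for a 4-fold lower level within replicate 1 as well, which is that Hd-rR pair. Nothing is therefore read from their count in that fit.

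Matrix genes of cartilage and tendon formed the next group, with 3 members among the 17 measured genes of a list of cartilage, bone and matrix genes. They began 2 to 3 steps before the opsins and had their highest means at stage 36. The gene col9a1 (chr15:25143401-25157658) encodes a chain of type IX collagen, which coats the collagen fibrils of cartilage. It was at 0 and 0.0377 TPM at stage 19, 27.6 and 43.6 at stage 25, 172 and 213 at stage 36, 41.5 and 61.6 at stage 40, and 8.12 and 8.49 at stage 41. It rose by 5.13 ± 0.44 log2 units from stage 19 to 25 (adjusted p = 5.9e-07), and its level at stage 40 was already below that of stage 36 in both libraries.

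The gene matn3 (chr24:6512329-6519616) encodes matrilin 3, an adaptor of the cartilage matrix. It measured 143 and 85.3 TPM at stage 36, 66.6 and 59.5 at stage 40, and 5.33 and 5.29 at stage 41. It rose by 2.61 ± 0.40 log2 units from stage 25 to 29 (adjusted p = 0.000348). The gene fmod (chr5:27874240-27877422) encodes fibromodulin, a small proteoglycan that binds collagen fibrils, in tendon as well as cartilage. It stood at 198 and 134 TPM at stage 40 and at 18.97 and 9.67 TPM at stage 41, after rising by 1.85 ± 0.39 log2 units from stage 19 to 25 (adjusted p = 0.00429) and by 2.71 ± 0.39 from stage 25 to 29 (adjusted p = 0.000243). The first of these 2 calls was lost without replicate 1 of stage 19 (adjusted p = 0.0904) or replicate 2 of stage 25 (adjusted p = 0.0733).

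The rest of that list did not follow them at the last step. Of its 17 genes, 3 were called lower at stage 41, namely the 3 members, and 5 were called higher, with a median log2 change of 0.13 against -0.22 over all genes, of which 9.71% were called lower and 5.22% higher. The 3 members were chosen for their fall, so their calls carry no weight here. Without the other strain 2 of the 17 were called lower and 2 higher, and after median-of-ratios scaling 3 lower and 7 higher. The gene col9a3, which encodes another chain of type IX collagen, was at 131 and 158 TPM at stage 40 and at 159 and 142 TPM at stage 41. The gene col10a1, a collagen of hypertrophic chondrocytes and of bone-forming cells in fish, was at 35.8 and 25.1 TPM at stage 40 and at 404 and 1933 TPM at stage 41. The gene col1a2, which encodes a chain of the main collagen of bone and skin, went from 404 and 273 TPM to 1141 and 1664 TPM. Among the genes of the list outside the set, courses at this step were thus unequal. The difference between col9a1 and col9a3 was not tested, since col9a1 was chosen for its lower level at stage 41.

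**Figure D3:**
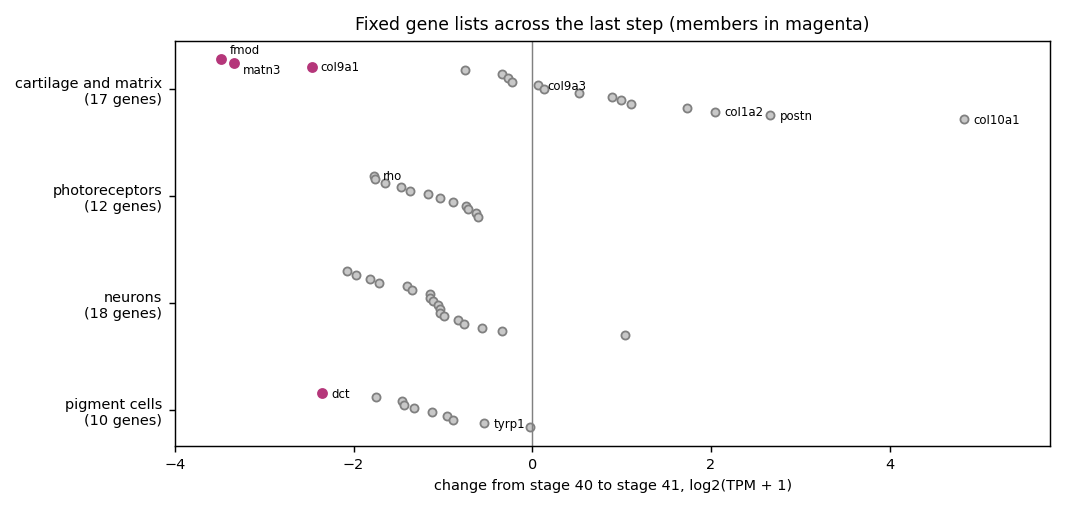
Change from stage 40 to 41 on the log2(TPM + 1) scale for each measured gene of 4 fixed lists, with members of the set in magenta and the other genes in grey. The matrix list spans from -3.49 for fmod to 4.83 for col10a1, while the photoreceptor and pigment lists lie at or below 0 throughout.

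Among the members with a symbol, 6 have known roles in synapses or axons. They were grouped by hand after their values had been seen, and their first calls fell at different steps. The gene slc6a5 (chr3:6576339-6604190) encodes the glycine transporter of inhibitory nerve endings. It was at 0.603 and 0.739 TPM at stage 25, 3.52 and 11.3 at stage 29, 19.8 and 16.7 at stage 40, and 2.37 and 2.80 at stage 41. It rose by 2.16 ± 0.37 log2 units from stage 25 to 29 (adjusted p = 0.000937). At the same step cdk5r1, an activator of the neuronal kinase Cdk5, rose by 3.22 ± 0.41 (adjusted p = 6.99e-05). This gene had already been called from stage 19 to 25 (1.41 ± 0.41, adjusted p = 0.0342), a call that was lost without any 1 of the 4 libraries of that step (adjusted p of 0.0999 to 0.194), at a pseudocount of 5 and without the filter.

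The adhesion protein gene nlgn3b, a neuroligin of the receiving side of the synapse, rose there by 2.61 ± 0.37 (adjusted p = 0.000183). The synaptic vesicle protein gene synpr rose by 2.32 ± 0.54 (adjusted p = 0.0104). The gene lrrtm2, which encodes a synapse-organizing membrane protein, came later and rose by 1.68 ± 0.34 from stage 32 to 36 (adjusted p = 0.00727). The gene plppr1, a lipid phosphatase-related membrane protein of growing axons, came earlier and rose by 1.41 ± 0.32 from stage 19 to 25 (adjusted p = 0.00643). The calls of synpr, lrrtm2 and plppr1 were each lost without either of 2 single libraries, with an adjusted p of 0.112 and 0.280 for synpr (replicate 1 of stage 25, replicate 2 of stage 29), 0.206 and 0.180 for lrrtm2 (replicate 1 of stage 32, replicate 1 of stage 36), and 0.123 and 0.104 for plppr1 (replicate 1 of stage 19, replicate 2 of stage 25). All 3 were also lost after quantile normalization. None of these 6 genes was highest at stage 40: their highest means were at stage 36 or 38.

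The stage 40 mean of these genes exceeded that of stage 41 by ratios of 4.22 for nlgn3b, 4.38 for synpr, 4.503 for cdk5r1, 4.99 for plppr1, 5.22 for lrrtm2 and 7.06 for slc6a5. The levels of the 6 at stage 41 were between 2.35 and 15.5 TPM. None of these 6 stood in the fixed list of neuronal genes, of which 18 were tested. In that list 7 were called lower from stage 40 to 41 and 0 higher, with a median log2 change of -1.08, beside 9.71% lower and 5.22% higher of all genes and a median of -0.22. Without the other strain 1 was called lower and 0 higher, with a median of -0.94, and after median-of-ratios scaling 6 were called lower and 1 higher. The gene gad2, which encodes an enzyme of GABA synthesis, met the rule on the means, at a ratio of 4.25, but not within each replicate. The 5 neuron markers summed to 479 and 492 TPM at stage 40 and to 270 and 190 TPM at stage 41, and their part in the lower levels was not tested.

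Of 18 fixed lists of genes by role, matched by gene symbol alone, 3 held a member: those of matrix, pigment and hormone genes. Members without a gene symbol could fall in no list, and neither could opn1sw and kfh-g under these symbols. The hatching gland list could hold no member, since its 2 measured genes, lce and hce, were left out by name. The gene dct (chr21:23418252-23423000) encodes dopachrome tautomerase, an enzyme of melanin synthesis. It was at 4.14 and 11.3 TPM at stage 19, 38.04 and 52.5 at stage 25, 136 and 126 at stage 36, 59.9 and 63.4 at stage 40, and 8.07 and 15.6 at stage 41. It rose by 2.52 ± 0.39 log2 units from stage 19 to 25 (adjusted p = 0.000262). Of 10 measured pigment genes, 5 were called lower from stage 40 to 41 and 0 higher, with a median log2 change of -1.23, beside 9.71% lower and 5.22% higher of all genes and a median of -0.22. One of the 5 is dct itself, which was chosen for its fall. After median-of-ratios scaling 5 of the 10 were called lower. Without the other strain the median log2 change was -2.18, against -0.29 over all genes. In all 10 genes the ratio of stage 40 to 41 was larger in replicate 1, the Hd-rR pair. The gene pmel went from 217 to 35.6 TPM in replicate 1 and from 127 to 99.6 TPM in replicate 2. The gene oca2 went from 17.3 to 2.93 TPM and from 12.2 to 15.4 TPM. Strain and replicate number cannot be told apart at these stages, so the source of this difference cannot be named. The melanin enzyme gene tyrp1 was not called in the main fit, at 59.7 and 46.7 TPM at stage 40 and 26.1 and 49.8 TPM at stage 41.

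The gene npb (chr8:10549376-10550660) encodes neuropeptide B, a peptide that in mammals acts on feeding and behaviour. It rose at 2 separate steps, by 1.73 ± 0.39 log2 units from stage 19 to 25 (adjusted p = 0.00721) and by 2.03 ± 0.39 from stage 36 to 38 (adjusted p = 0.00566). The first call was lost without replicate 1 of stage 19 (adjusted p = 0.0646) or replicate 2 of stage 25 (adjusted p = 0.0793), and the second without replicate 1 of stage 36 (adjusted p = 0.0783) or replicate 2 of stage 38 (adjusted p = 0.154). Its level was 23.1 and 19.8 TPM at stage 40 and 1.43 and 1.44 TPM at stage 41, the largest ratio (14.97) among the 14 members with a gene symbol. The gene rai1, which in mammals encodes a chromatin-bound regulator, rose by 2.54 ± 0.42 from stage 25 to 29 (adjusted p = 0.000765, and 0.0717 after quantile normalization). It measured 13.99 and 10.0005 TPM at stage 40 and 1.51 and 2.39 TPM at stage 41.

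A late, short peak was shared by 3 genes on chromosome 19 that lie side by side. They are IGDB17557 (chr19:2152789-2158016, minus strand), IGDB17558 (chr19:2226266-2230272, plus strand) and IGDB17559 (chr19:2252000-2256305, minus strand), with 2, 3 and 2 exons. No gene model lies between the first pair and 1 lies between the second pair. The files and the reference give them no gene symbol, so they are described by position only.

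All 3 were near 0 through stage 32. At stage 36, IGDB17557 was at 0.223 and 0.115 TPM, IGDB17558 at 0.0802 and 0 and IGDB17559 at 3.84 and 0.519. At stage 38 their levels were 13.9 and 37.8, 17.3 and 61.2, and 28.4 and 27.9 TPM. At stage 40 they reached 499 and 218, 344 and 383, and 275 and 107 TPM. At stage 41 they were back at 13.3 and 9.13, 28.1 and 27.6, and 2.37 and 3.38 TPM.

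The rise from stage 36 to 38 was 4.36 ± 0.38 log2 units for IGDB17557 (adjusted p = 6.59e-06), 5.02 ± 0.37 for IGDB17558 (adjusted p = 1.37e-06) and 3.43 ± 0.42 for IGDB17559 (adjusted p = 0.000135). From stage 38 to 40, 4 members (6.78%) were called higher, these 3 and IGDB02263, beside 0.302% of all genes. Stage 40 took part in the choice, so nothing is read from that count. The stage 40 mean was 31.9, 13.0 and 66.5 times that of stage 41, and the last is the largest ratio in the set. The other models of the neighbourhood did not share the peak: the model between IGDB17558 and IGDB17559, IGDB04672, was at 0.114 and 0 TPM at stage 40. Both flanking genes, IGDB04671 and IGDB04673, were under 1 TPM at that stage.

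The gene IGDB02263 (chr13:26805109-26813484) was high at stage 40 alone. It measured 0.572 and 1.07 TPM at stage 38, 20.2 and 13.4 at stage 40, and was listed at 0 in both libraries of stage 41. No ratio is given for it, since TPM listed at 0 have no known floor.

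**Figure D4:**
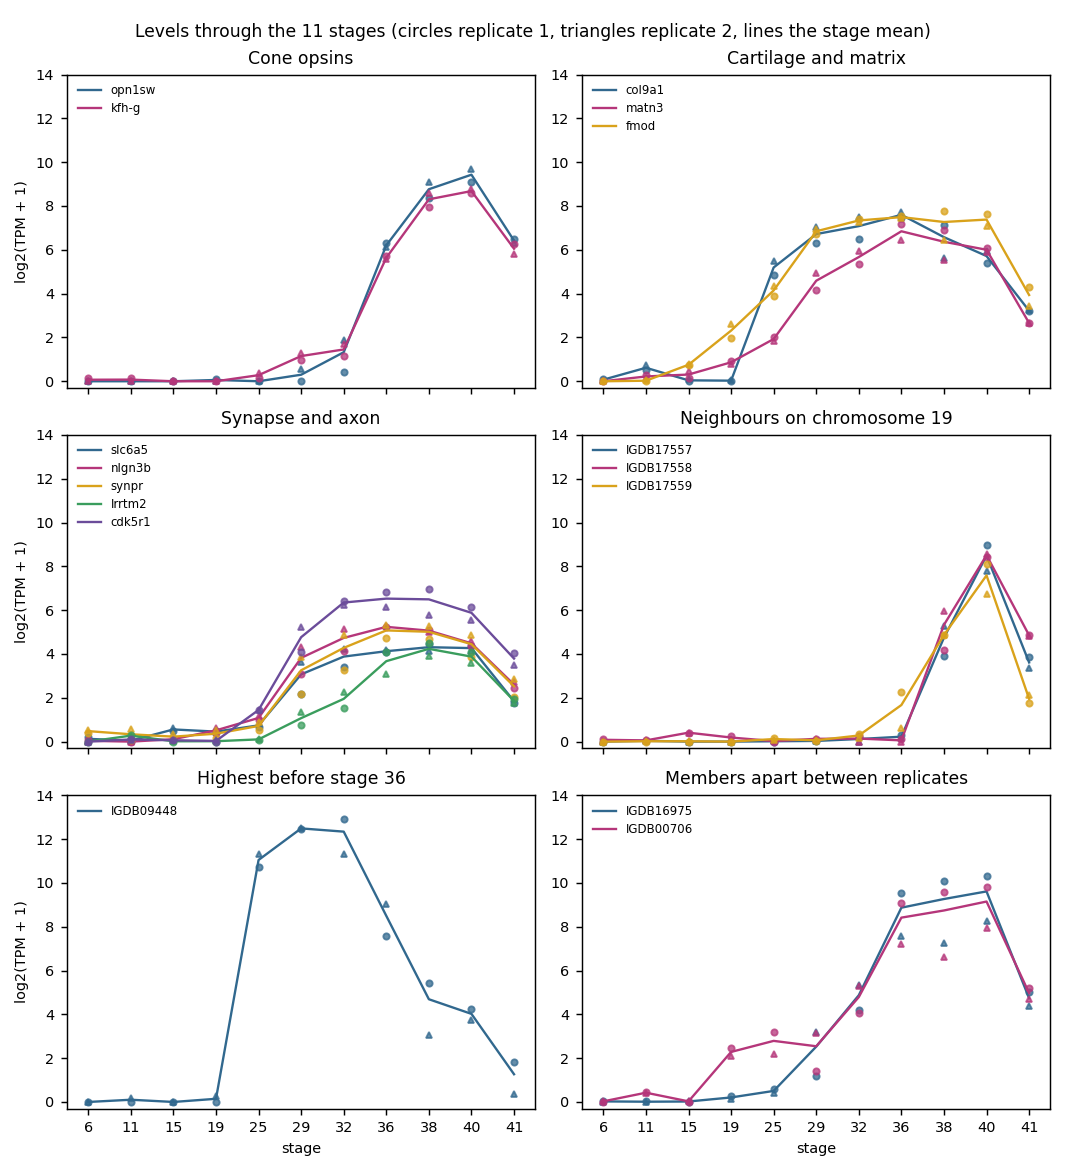
Levels of selected members on the log2(TPM + 1) scale through the 11 stages, with circles for replicate 1, triangles for replicate 2 and lines through the stage means. Matrix genes climb from stage 19 or 25, opsins after stage 32 and the chromosome 19 neighbours after stage 36. In the synapse and axon panel, cdk5r1 was first called from stage 19, lrrtm2 from stage 32 and the others from stage 25. The bottom panels show IGDB09448, highest at stage 29, and 2 genes whose replicates stay apart from stage 36 to 40.

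At the other end stood IGDB09448 (chr8:8212545-8213137), a short 3-exon model with a transcript of 432 bases and no symbol. Its level was 0 and 0.211 TPM at stage 19, 1684 and 2541 at stage 25, 5587 and 5887 at stage 29, and 7842 and 2514 at stage 32. It then measured 190 and 529 TPM at stage 36, 42.2 and 7.33 at stage 38, 17.9 and 12.5 at stage 40, and 2.52 and 0.287 at stage 41. The stage 40 level through which it entered the set was thus the tail of a far higher peak.

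It rose by 10.88 ± 0.66 log2 units from stage 19 to 25 (adjusted p = 1.87e-08). It fell by 3.80 on the log2 scale from stage 32 to 36 (SE 0.66, adjusted p = 0.0027) and by 4.07 from stage 36 to 38 (adjusted p = 0.0015). The call from stage 32 to 36 was lost without replicate 1 of stage 32 (adjusted p = 0.109) or replicate 1 of stage 36 (adjusted p = 0.0851). At stage 32 this gene alone made up most of the set's summed TPM, which was 9066 and 4204 with it and 1224 and 1690 without it. The 2 hatching enzyme genes lce and hce were left out of the choice by name, so they could not be members at any level. They summed to 2556 and 3084 TPM at stage 32, 2415 and 2603 at stage 36, 325 and 61.6 at stage 40, and 0.0910 and 0.0922 at stage 41. Their part in the level of IGDB09448 was not tested.

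The highest mean at stage 40 belonged to IGDB16975 (chr17:30084625-30090247), and it differed widely between replicates, as did IGDB00706 (chr10:6638163-6640245). IGDB16975 was at 741 and 191 TPM at stage 36, 1077 and 150 at stage 38, 1253 and 308 at stage 40, and 31.2 and 20.1 at stage 41. IGDB00706 was at 534 and 146, 756 and 97.6, 887 and 246, and 35.8 and 24.7 TPM at the same stages. In both genes replicate 1 was higher at each of these stages, including stages 36 and 38, where both libraries are Hd-rR.

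Their rises from stage 32 to 36 were 3.79 ± 0.83 (adjusted p = 0.0127) and 3.47 ± 0.83 log2 units (adjusted p = 0.0193). Neither call held without replicate 1 of stage 32 (adjusted p = 0.253 and 0.344) or without replicate 1 of stage 36 (adjusted p = 0.265 and 0.349). The stage 40 libraries differed by 2-fold or more in 10 of the 59 genes.

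Other abundant members without a gene symbol split between the late and the intermediate course. Like the opsins, IGDB25896 (chr9:6870743-6875084) and IGDB23112 (chr5:26391084-26392923) rose by 4.75 ± 0.44 and 4.54 ± 0.38 log2 units from stage 32 to 36 (adjusted p = 8.93e-06 and 2.84e-06). They stood at 308 and 225 and at 204 and 207 TPM at stage 40, and at 71.2 and 45.5 and at 51.1 and 17.2 TPM at stage 41. By contrast IGDB09948 (chr9:11128811-11130234) rose by 4.83 ± 0.61 from stage 25 to 29 (adjusted p = 6.64e-05), with 377 and 136 TPM at stage 40 and 26.4 and 28.3 TPM at stage 41.

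Large ratios were also found for IGDB25405, IGDB24467 and IGDB17750. The first was at 200 and 53.7 TPM at stage 40 and at 4.31 and 2.30 TPM at stage 41, a ratio of 38.4. The ratio was 29.4 for IGDB02847, which matched no RefSeq gene and is named here after its values were seen. For IGDB24467 the ratio was 14.3 and for IGDB17750, which rose by 4.39 ± 0.44 from stage 36 to 38 (adjusted p = 2.7e-05), it was 12.3. Besides IGDB09448, the members with the highest share of their stage 40 level at stage 25 were IGDB15105 (86.9%), dct (73.5%) and col9a1 (69.1%).

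Across the set the stage 40 mean was between 4.197 and 66.5 times the stage 41 mean, with a median of 6.27 over the 58 genes with a value. The median was 6.22 in replicate 1 and 5.82 in replicate 2, and the ratio was larger in replicate 1 for 32 genes and in replicate 2 for 26. In 15 genes it was 10 or more. Each member was called lower by the same fit, beside 9.71% of all genes. The members were chosen for a 4-fold lower level at this step, so nothing is read from that count. Among all 10991 genes at 10 TPM or more at stage 40, 248 (2.26%) were lower by 4-fold or more at stage 41. Among the 1569 of them that were also under 1 TPM early, 156 (9.94%) were, while 486 were higher at stage 41.

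**Figure D5:**
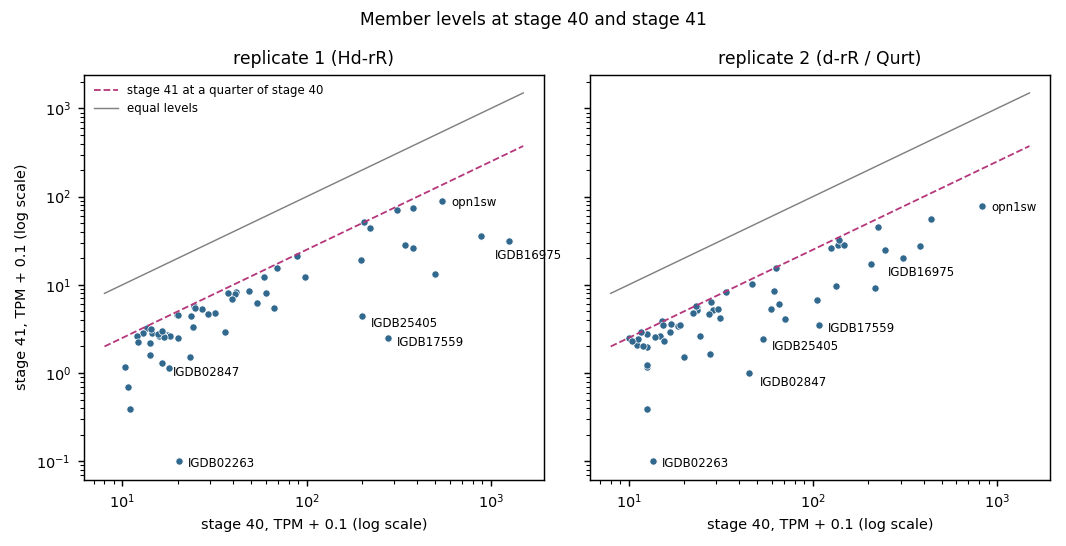
Level of each of the 59 genes at stage 40 (horizontal) and stage 41 (vertical), as TPM + 0.1 on log axes, for replicate 1 and replicate 2. Points on or below the dashed line are lower by 4-fold or more, which the choice requires in both panels. IGDB02263, listed at 0 at stage 41, sits at 0.1, and IGDB17559 lies far below the line in both.

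The thresholds cut through a continuous range. Just inside the 4-fold limit lay IGDB15667 (4.197), nlgn3b (4.22) and IGDB10907 (4.29), and just outside lay IGDB16938 (3.99), IGDB24663 (3.99) and cdhr1 (3.96). The lowest stage 40 means inside were 11.2 for IGDB24874 and IGDB01667 and 11.7 for IGDB24136, and the nearest outside were 9.90 for btbd17, 9.80 for IGDB01419 and 9.77 for IGDB26300. The highest early means inside were 0.835 for IGDB03336, 0.798 for IGDB03318 and 0.685 for fmod, and the nearest outside were 1.02 for IGDB21343, 1.06 for IGDB03937 and 1.09 for IGDB05801.

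The replicate condition removed 77 genes. The ratio was under 4 within replicate 1 in 34 of them and within replicate 2 in 29. In 51 of the 77 both replicates still showed a ratio of 3 or more, and in 72 a ratio of 2 or more. In 1 gene a replicate had the higher level at stage 41. Quantile normalization of the libraries left 21 genes that met the choice, 9 of them among the 59.

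Features of the gene models took no part in the choice. The median member had 6 exons and a transcript of 2132 bases, against 8 exons and 2536 bases over the genes tested, and 36 of 59 models (61.0%) had StringTie as their source, against 69.2%. Members lay on 22 of 24 chromosomes, with 8 on chromosome 5 and 7 each on chromosomes 8 and 19. The share of all genes on these chromosomes is not given, so no excess is read from these counts. The run on chromosome 19 was the only place where members were next to each other or 1 model apart, and the next nearest pair, IGDB09448 and IGDB25189 on chromosome 8, had 20 models between them. A model on the other strand overlapped 9 members, opn1sw, dct, lrrtm2 and plppr1 among them, and one on the same strand overlapped 4, synpr and plppr1 among them. The libraries keep strand, but how the counting used it is not given in the sources used here, so the values of these members are less certain. A RefSeq gene matched 53 members by position, 14 of them with a gene symbol, and no sequence was read.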

How the data were processed

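Whole medaka embryos of 11 stages were profiled by stranded poly(A) RNA sequencing. The study's methods describe many embryos pooled per stage. The authors aligned paired reads with HISAT2 2.1.0 and computed the deposited TPM values per gene with StringTie 1.3.3b on their own gene models, and replicates were not pooled. Library totals ran from 980148 to 1000000 TPM. All 22 library columns carried a stage and a replicate number and matched 1 sample each. TPM are relative, so a lower share of one gene can follow from a higher share of others; from stage 40 to 41 the median change over all genes was -0.22 log2 units, and -0.04 after median-of-ratios scaling.

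Members and lists were chosen with earlier results of these data known. The test was limma 3.58.1 (R 4.3.3), fitted to log2 TPM after a pseudocount of 1 was added, for 21179 genes that reached 1 TPM in 2 or more libraries; each stage had its own mean and the variance followed an intensity trend. Fold changes on this scale understate those of low genes. In simulated data for stage 25 to 29, 22, 96, 100 and 100% of genes changed by 1, 2, 3 and 4 log2 units were called, with 6 false calls among 20979. The simulated spread followed the level of a gene alone and was independent between libraries. It held no spread particular to a gene and no deviations shared between libraries, so these shares may not hold in the real data. Symbols came from RefSeq spans (assembly ASM223467v1) with a Jaccard overlap of at least 0.5 that were mutual best matches; 18091 genes matched, and 2415 after a shift of 200000 bases. Product names and sequences were not used here. Named genes were the 10 highest at stage 40, the 10 with the largest ratio to stage 41, members of the fixed lists, members with a gene symbol, the earliest and latest, those next to a threshold and runs of neighbours. Alternatives changed the pseudocount, filter, scaling, variance trend, replicate block, strain, single libraries and the thresholds of the choice. Some results that the rule for named genes takes are not reported here. Gonad values were not used here, because both of their columns are named for the ovary and their identifiers did not pair with the stage table. Python 3.11.15, numpy 2.4.6, pandas 2.3.3 and matplotlib 3.10.9 were used.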

Additional observations from a re-analysis of the deposited data

How the results depend on the processing

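No single-gene call changed direction. The median change of all genes from stage 36 to 38 went from -0.18 to 0.11 log2 units after median-of-ratios scaling, and the calls over all genes from stage 40 to 41 went from 2057 lower and 1105 higher to 738 lower and 804 higher with the other strain left out and to 1672 lower and 1555 higher after median-of-ratios scaling. Of 912 values of the 76 single-gene calls under the alternatives, 747 kept the call and 165 kept the direction without it, and 29 calls held under every alternative. From stage 19 to 25, a pseudocount of 5 lowered the members called from 16 to 8 and all genes called from 1899 to 810. From stage 25 to 29 it lowered them from 19 to 11 and from 1749 to 835. From stage 36 to 38, a pseudocount of 0.1 lowered members from 16 to 9 and all genes from 935 to 539. From stage 25 to 29, quantile normalization lowered members from 19 to 12 and all genes from 1749 to 1052. From stage 32 to 36 it lowered them from 25 to 16 and from 930 to 483. Left-out libraries moved the calls over all genes as well. Leaving out 1 library of a step gave 8 to 13, 10 to 22, 0 to 8, 10 to 27 and 13 to 16 member calls at the 5 steps in order. The calls over all genes were then 976 to 1900, 611 to 1838, 0 to 236, 132 to 1296 and 236 to 2284. The replicate block gave 16, 21, 0, 26 and 19 calls and lost none of the 76. Over all genes it gave 2280, 2166, 2, 1207 and 1492 calls. The labels do not say what the replicate number marks. Deviations with the same number correlated between 0.05 and 0.67 over 55 pairs of stages. With only 2 numbers, the block is not used as a pairing.

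The size of the set depended on its rule. It was 93 and 30 genes with a stage 40 floor of 5 and 20 TPM, 362 and 13 with a ratio of 2 and 8, 136 on means alone, 159 in replicate 1 alone and 189 in replicate 2 alone. After median-of-ratios scaling 43 genes met it, 39 of them members, and 20 members missed the 4-fold limit. After quantile normalization 21 met it, 9 of them members, and 47 members exceeded the early ceiling. TPM hold no depth, so counting error could not be given, and 2 pools per stage limit every test.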
